A study of Mus musculus with 54 samples.

Results

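Paneth cells were taken from 4 single-cell libraries of the mouse small intestine as the cells in which lysozyme (Lyz1) and the genes with a Defa symbol, the alpha-defensins, gave at least 10% of all transcripts counted. A transcript count here is a UMI, a molecular tag that is counted only 1 time however often it was read. Of 9156 cells kept for holding 500 or more genes and 1000 or more UMIs, with less than 25% of UMIs mitochondrial, 521 met this rule. The wild-type (WT) library of set 1 held 90 of them, the miR-375 knockout (KO) library of set 1 held 90, the WT library of set 2 held 84 and the KO library of set 2 held 257. The cells were thus selected on the measured levels of Lyz1 and 13 Defa symbols, so those levels describe the cells and were not tested.

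Paneth cells are secretory cells at the base of the crypts of the small intestine. They store alpha-defensins, lysozyme and other antimicrobial proteins in large granules, release them into the crypt lumen, and also make Wnt3, EGF family and Notch ligands that neighbouring stem cells use. They arise from secretory progenitors that need Atoh1, and their maturation depends on Wnt signalling and Sox9. Alpha-defensins are made as inactive precursors that the protease Mmp7 cuts in the mouse.

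All 4 libraries came from C57BL6/2J mice that were 12 months old, and the groups differ in genotype, WT against miR-375 knockout. The labels number the libraries of each genotype as set 1 and set 2. They do not say what a set shares, how many mice a library pools or whether the libraries of a genotype came from separate mice, so every p-value measures the spread between these libraries only. The labels also do not name the allele, so nothing is stated here on how the microRNA gene was removed. MicroRNAs are small RNAs that bind matching sites in messenger RNAs and reduce the protein made from them.

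The deleted gene, Mir375, is not among the 27998 genes listed in the matrices, so the knockout could not be checked in them. Its hairpin lies at chr1:74900658-74900721 on the minus strand of GRCm38.p6 and is shown, from RefSeq, because it is the sequence that the knockout label names; capitals mark the miR-375-5p arm.
Mir375 hairpin: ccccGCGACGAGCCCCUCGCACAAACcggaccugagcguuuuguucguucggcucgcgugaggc

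The Paneth share of kept cells was close between genotypes in set 1 and differed in set 2. It was 7.52% in WT set 1 (90 of 1197 cells, 95% exact Clopper-Pearson interval 6.09% to 9.16%) and 7.25% in KO set 1 (90 of 1241, 5.87% to 8.84%). It was 2.50% in WT set 2 (84 of 3363, 2.00% to 3.08%) and 7.66% in KO set 2 (257 of 3355, 6.78% to 8.61%). These intervals cover counting error only. Under this filter WT set 2 was the low library; the intervals of the other 3 overlapped. The difference, KO minus WT, was -0.27 percentage points in set 1 and 5.16 points in set 2, where the KO share was 3.07 times the WT share. Over both sets the share was 5.01% ± 3.55 (SD, n = 2) in WT and 7.46% ± 0.288 (SD, n = 2) in KO, and the two-sided exact permutation p of this difference was 0.667, where 2 against 2 libraries cannot go below 0.333. Without WT set 2 the difference was -0.06 points.

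Both the Paneth count and the number of cells behind that share moved with the filter on cells in set 2. A further 70 barcodes of WT set 2 and 79 of KO set 2 met the 10% rule without passing the filter, 57 and 60 of them for holding under 500 genes, against 0 and 3 in WT and KO of set 1. With no filter on barcodes the share was 2.00% in WT set 2 and 4.38% in KO set 2. With a minimum of 200 genes in place of 500 it was 3.61% and 8.76%. Among kept cells without a UMI of 5 immune cell genes it was 4.15% and 10.4%, beside 3.34% and 3.70% in WT and KO of set 1, so that there WT set 2 was not the lowest and KO set 2 stood above the other 3. The order of the set 2 libraries was the same under all 3 settings.

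**Figure D1:**
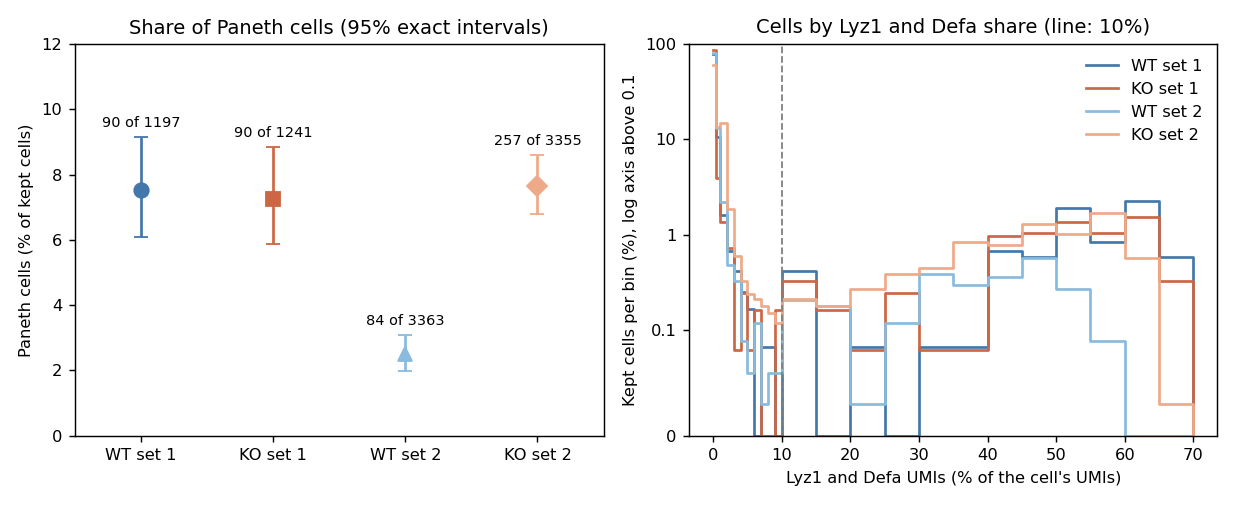
Left, Paneth cells as a percentage of kept cells in each library, with exact 95% intervals and the cell numbers; WT set 2, at 2.50%, lies below the other 3 libraries. Right, the percentage of kept cells (log axis above 0.1) by the share of Lyz1 and Defa UMIs in a cell; most cells lie under 1% and few lie near the 10% line.

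Members stood well apart from most other cells on the measure that chose them. The median Lyz1 and Defa share was 54.7%, 51.9%, 40.4% and 48.1% of a Paneth cell's UMIs in WT and KO of set 1 and WT and KO of set 2, and 0.330%, 0.269%, 0.189% and 0.192% in the other kept cells. The members nearest to the limit held 11.4%, 11.1%, 10.2% and 10.2%, and the nearest cells outside held 8.30%, 9.64%, 9.71% and 9.89%. Between 10% and 20% lay 5, 6, 13 and 13 members, and between 5% and 10% lay 4, 5, 11 and 30 other cells.

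Depth differed between the libraries. Each library held 24533466 to 70409055 UMIs. Paneth cells held a median of 70351 UMIs in WT set 1, 66934 in KO set 1, 62697 in WT set 2 and 37815 in KO set 2, and the other cells held 15943, 15413, 5980 and 13620. KO set 2 therefore had the most Paneth cells and the fewest UMIs in each. No barcode was shared between Paneth cells of any pair of libraries, and over kept cells WT and KO shared 1 barcode in set 1 and 3 in set 2. Mitochondrial transcripts were 4.64%, 4.21%, 11.4% and 10.3% of the Paneth UMIs outside Lyz1 and the alpha-defensins, close within a set and higher in set 2.

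Lyz1 and the alpha-defensins filled most of the Paneth transcriptome. By their RefSeq names, 15 further genes that the files list under other symbols are alpha-defensins, which makes a family of 28 beside Lyz1. Together these 29 genes held 80.6% of Paneth UMIs in WT set 1, 78.5% in KO set 1, 60.3% in WT set 2 and 68.8% in KO set 2. Levels of all other genes are therefore given below per 1000000 UMIs outside these 29 genes (CPM), which leaves 1157177 to 2711626 UMIs per library. Levels are UMI counts that are not divided by gene length, so they are compared between libraries and cells and not between genes.

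Defa24 (chr8:21734494-21735471, plus strand, GRCm38) held the largest share, 28.1% of Paneth UMIs in WT set 1, 28.4% in KO set 1, 24.7% in WT set 2 and 30.6% in KO set 2. Lyz1 (chr10:117287797-117292868, minus strand), an enzyme that cuts the bacterial cell wall, held 5.89%, 5.90%, 6.18% and 7.70% in the same order. Gm15284, named Defa30 in RefSeq, held 10.1%, 11.0%, 8.83% and 7.73%. Defa21 held 5.55%, 4.80%, 2.76% and 3.00%, and Defa22 held 5.30%, 5.06%, 2.82% and 3.23%. Defa26 held 0.482%, 0.528%, 0.396% and 0.436%. For Defa24 and Lyz1 the genotypes were within 1% in set 1, and KO was 1.24 and 1.25 times WT in set 2.

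The defensin repertoire differed more between sets than between genotypes. Of the 25 family genes with at least 1000 UMIs over the 4 libraries, 9 were over 2-fold higher in set 1 than in set 2 in both genotypes, and 2 were over 2-fold higher in set 2 in both. The share of other genes that pass the same limit was not counted. These counts therefore do not set the family apart from other genes of the Paneth cells. None differed over 2-fold between KO and WT within either set, with ratios from 0.558 to 1.75. Defa20 held 4.94% of Paneth UMIs in WT set 1, 4.65% in KO set 1, 0.365% in WT set 2 and 0.327% in KO set 2, so that set 1 was 13.5 times set 2 in WT and 14.2 times in KO. Defa17 held 0.836%, 0.813%, 0.0746% and 0.0797%, and Gm7861 (Defa43) held 0.230%, 0.189%, 0.0172% and 0.0165%. Gm15308 (Defa32) and Gm14850 (Defa37) were 5.53 to 7.89 times higher in set 1. The opposite was seen for Gm15299 (Defa27), with 0.108%, 0.0865%, 1.17% and 1.25%, and for Gm10104 (Defa35), with 0.147%, 0.107%, 0.945% and 0.607%. AY761185, a gene of the same stretch of chromosome 8 that carries no Defa name, went the same way, at 62.2 and 40.3 CPM in WT and KO of set 1 and at 13443 and 11892 CPM in WT and KO of set 2.

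The split between defensin genes is uncertain, since the copies are alike where the reads fall. For 23 of the 29 genes the last 100 bases of the longest annotated transcript occur in another member with at most 2 differences, and for 12 of them without any. The matrices' headers also differ, with software version 3.0.1 named in both set 2 files and none named in the set 1 files. What a set stands for is not labelled, so mice, library preparation and counting cannot be told apart here, and the part of each in the difference was not tested. The 15 alpha-defensins outside the rule all entered the KO against WT fit described below, and 0 were called, with a median log2 fold change of 0.09. In that fit 0.0591% of all genes tested were called, so a count of 0 does not set the 15 apart. Since the copies are alike, their counts may not be separate from those of the genes in the rule.

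**Figure D2:**
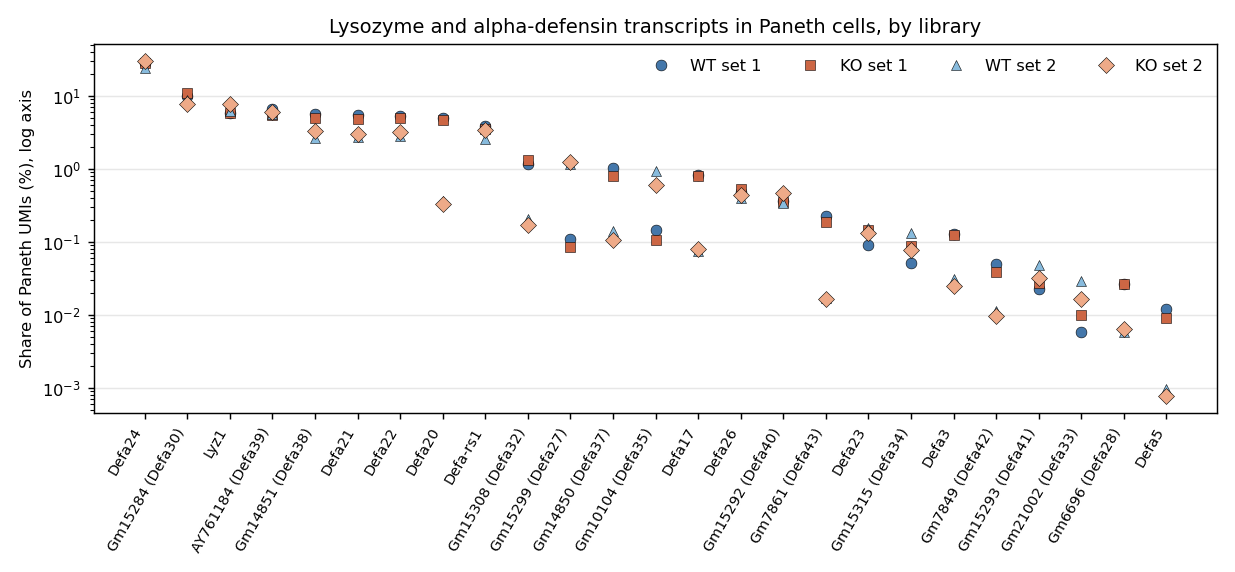
Share of all Paneth UMIs (log axis) held by Lyz1 and by each alpha-defensin of at least 0.01% in some library, with RefSeq names in brackets. WT and KO symbols of a set lie close together, while Defa20, Defa17 and Gm7861 (Defa43) lie far higher in set 1 and Gm15299 (Defa27) in set 2.

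Promoters are shown for Defa20 and Defa35, whose shares went apart between the sets, beside Defa21 and Lyz1. Defa21 differed less, with set 1 at 2.01 times set 2 in WT and 1.60 times in KO. The upstream sequences of genes with different patterns can thus be read together. Each line gives the 100 bases before the transcription start from RefSeq on GRCm38.p6, and capitals mark TATAAA, the TATA box, and CTTTGA or its reverse complement TCAAAG, which is part of the site read by TCF factors of the Wnt pathway. Both strands were searched and the matches do not overlap. They are for Defa21 at chr8:21025445-21025544 on the plus strand, Defa20 at chr8:21509158-21509257 on the plus strand, Defa35 at chr8:21064938-21065037 on the plus strand and Lyz1 at chr10:117292869-117292968 on the minus strand.
Defa21: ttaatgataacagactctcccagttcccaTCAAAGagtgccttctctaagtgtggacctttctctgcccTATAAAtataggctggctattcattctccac
Defa20: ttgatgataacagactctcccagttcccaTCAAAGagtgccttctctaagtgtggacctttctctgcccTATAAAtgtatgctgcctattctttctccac
Defa35: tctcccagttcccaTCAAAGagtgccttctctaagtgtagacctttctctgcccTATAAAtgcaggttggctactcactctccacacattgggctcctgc
Lyz1: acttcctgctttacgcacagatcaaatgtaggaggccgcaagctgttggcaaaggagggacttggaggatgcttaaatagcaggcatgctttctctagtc

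Defa20 matched Defa21 at 95 of 100 positions while the sets differed far more in Defa20 than in Defa21, and Defa22 matched Defa21 at 100 of 100. Defa35 matched Defa21 at 25 of 100 positions when the windows were compared without gaps, and its TCAAAG and TATAAA lie further upstream. The stretch that opens the Defa35 window and runs through its TATAAA is nearly unchanged in Defa21, where it lies closer to the transcription start. The count of 25 thus reflects this offset of the windows and does not measure how alike the 2 promoters are. TATAAA was found in 15 of the 16 promoters of numbered Defa genes in the table and in 5.57% of all 32817 promoters of the same length. CTTTGA was found in 9 of the 16 and in 4.96% of all. Neither set of letters is in the Lyz1 window shown.

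Outside the family, the genes that set Paneth cells furthest apart from the other kept cells coded for secreted proteins, among them Mptx2, Ang4, Clps, Itln1 and Mmp7, and for proteins that are not secreted. Values are given for the 15 genes with a mean of at least 100 CPM over the 4 libraries and the largest ratio in their lowest library, as a description with no test, since the cells were split on correlated genes. Mptx2, a mucosal pentraxin (chr1:173274382-173277777), stood at 18734 CPM in WT set 1, 41008 in KO set 1, 29133 in WT set 2 and 28646 in KO set 2, against 15.7 to 41.6 CPM in the other cells. Ang4, a ribonuclease that kills bacteria, stood at 51417, 43391, 19823 and 29531 CPM. Itln1, intelectin, a lectin that binds microbial sugars, stood at 96087 to 138244 CPM against 219 to 443 CPM in the other cells. Clps, the cofactor of lipase, and Pnliprp2, a lipase, were 8.54 to 9.21 and 8.51 to 9.32 higher on the log2 scale. Mmp7, the protease that activates defensins, stood at 6849, 6573, 6049 and 8436 CPM against 41.6 to 90.1 CPM.

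Wnt3, a ligand for stem cells, stood at 118, 120, 99.9 and 145 CPM in WT and KO of set 1 and WT and KO of set 2 against 2.01 to 3.33 CPM in the other cells. Habp2, a serine protease, stood at 196 to 287 CPM, 7.17 to 7.76 higher on the log2 scale. Bambi, which blocks TGF-beta signalling, stood at 811, 746, 290 and 447 CPM and was higher in set 1. Nupr1, a stress-induced nuclear protein, stood at 1983 to 2643 CPM. Reg4, a secreted lectin, stood at 5951, 4934, 2079 and 2730 CPM. Tmed6 and Copz2, both parts of the transport between the endoplasmic reticulum and the Golgi, and Fam46c, a poly(A) polymerase, were 4.21 to 6.70 higher on the log2 scale. AY761185, which completes the list, was 8.24 to 11.2 higher.

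**Figure D3:**
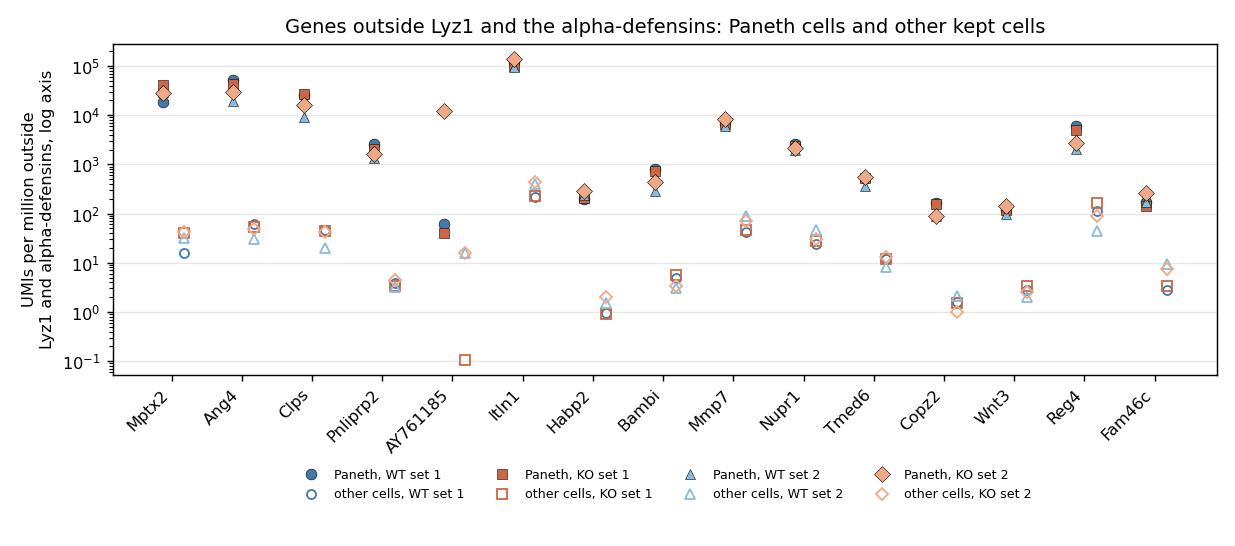
Levels of the 15 genes in Paneth cells (filled) and in the other kept cells (open) of each library, as CPM outside Lyz1 and the alpha-defensins, log axis. Filled symbols lie above the open ones of the same library for all 15 genes; AY761185 lies far apart between the sets, and its zero in other cells of WT set 1 is not drawn.

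Single Paneth cells varied widely in Mptx2. After each cell was thinned to 10000 UMIs, which left out 1, 3, 12 and 59 shallower cells in WT and KO of set 1 and WT and KO of set 2, the quartiles of Mptx2 were 8 and 49 UMIs in WT set 1, 37 and 124.5 in KO set 1, 26.5 and 165.5 in WT set 2 and 17.25 and 139 in KO set 2. Its share of cells with a UMI was 93.1% to 97.5%. Those of Defa24 were 2500 and 3192, 2368 and 3300.5, 1629 and 3061, and 2412 and 3770 UMIs. Mmp7 was found in 100% of the thinned Paneth cells of every library. Wnt3 was found in 17.98%, 23.0%, 27.8% and 37.4% of them, against 2.43%, 2.44%, 2.01% and 2.06% of the other cells. Without thinning it was found in 67.8%, 71.1%, 78.6% and 75.1% of Paneth cells. The 10000 UMIs include Lyz1 and the alpha-defensins, 60.3% to 80.6% of Paneth UMIs by library. Thinned values of other genes, here and below, therefore rest on fewer UMIs in Paneth cells than in other cells, and on unequal numbers between libraries.

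The label was checked against markers that the rule did not use. The 7 markers outside the family that the files list (Ang4, Mmp7, Itln1, Mptx2, Mptx1, Clps and Habp2) summed to 160626 to 223891 CPM in Paneth cells and to 388 to 652 CPM in the other cells, and none was at 0. Goblet cell markers were also high, 79175, 67763, 62475 and 36496 CPM in WT and KO of set 1 and WT and KO of set 2, which is 122% to 358% of their level in the other cells. That list holds Spink4 (57840, 44444, 44545 and 25429 CPM), Agr2, Atoh1 and Spdef, which Paneth cells also express, while its defining gene Muc2, the gel-forming mucin, had a median of 3, 3, 8.5 and 8 UMIs in a thinned Paneth cell and of 0 in the other cells. Muc2 was found in 88.8%, 89.7%, 100% and 98.5% of thinned Paneth cells and in 28.7%, 35.4%, 40.4% and 41.0% of the others. Tff3, a trefoil peptide of goblet cells, had medians of 11, 17, 8 and 8 UMIs against 2, 3, 1 and 2. Enterocyte markers stood at 8.45% to 19.96% of their level in the other cells. Tuft cell markers summed to 4.27 to 38.9 CPM, and 1, 3, 4 and 2 of the 8 were at 0. Other lists were higher in Paneth cells than in the other cells. Enteroendocrine markers stood at 488%, 516%, 265% and 333% of the level there, with Reg4 at 5951, 4934, 2079 and 2730 CPM as their main part, while Chga, their defining granule protein, stood at 2.59, 12.1, 3.21 and 3.32 CPM against 23.1 to 43.8 CPM in the other cells. Stem cell markers stood at 178% to 340%, with Lgr5 at 34.6, 25.01, 60.9 and 63.1 CPM against 5.39 to 6.82 CPM. Myeloid markers stood at 116% to 1389%, mostly through Lyz2, a lysozyme gene, at 280, 256, 184 and 94.4 CPM. In WT set 2, 1 cell held 66.3% of the Lyz2 UMIs. Of the 6 myeloid markers, 2 were at 0 in Paneth cells of each library, with C1qa among them in all 4. The part of these markers in the results below was not tested.

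Between KO and WT, few genes differed in Paneth cells by more than the spread of the libraries. UMIs were summed over the Paneth cells of each library, and 8454 genes outside the rule were tested within sets. Of these, 5 had an adjusted p under 0.05 (edgeR's quasi-likelihood test, Benjamini-Hochberg), 0.0591% of those tested, all higher in KO, and 285 had an unadjusted p under 0.05. The sums alone do not tell fewer cells that express a gene from less RNA per cell, and cell numbers are given below for some genes. DESeq2 called 3, of which 1 was among the 5.

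The 5 called genes are markers of blood cells, and 1 cell of KO set 1 held nearly all UMIs of the globins among them. Hba-a1, an alpha-globin chain of haemoglobin, counted 38 UMIs in Paneth cells of WT set 1, 3169 in KO set 1 and 0 in both libraries of set 2. Of the 3169, 98.99% lay in a single cell. Hba-a2 counted 21, 995, 0 and 0 UMIs, Hbb-bs 141, 4110, 0 and 0, and Hbb-bt 17, 1134, 0 and 0, with 97.9%, 96.1% and 98.6% of the KO set 1 count in 1 cell. That cell gave 53.4% of its UMIs outside the family to Hba-a1 and Hbb-bs. The globins did not have the same direction in both sets.

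Gzma, granzyme A of cytotoxic lymphocytes, was the only called gene that was higher in KO in both sets. It stood at 101 CPM in WT set 1, 287 in KO set 1, 18.7 in WT set 2 and 77.8 in KO set 2. It thus overlapped between the genotypes across sets. Its log2 fold change was 1.76 with a standard error, derived from the test statistic, of 0.18 (edgeR adjusted p = 0.0249, higher in KO in 2 of 2 sets). It was 3.46 without WT set 1, 0.29 without KO set 1, 0.84 without WT set 2 and 2.37 without KO set 2, and was not called in any of these. With mitochondrial UMIs under 15% it was 1.78 and not called (edgeR adjusted p = 0.233). In KO set 1, 39.0% of its UMIs lay in 1 cell, and in KO set 2, 3 cells held 87.2%. Gzma UMIs were nonetheless found in 61 of 90 Paneth cells of WT set 1 and in 72 of 90 of KO set 1. In set 2 they were found in 27 of 84 Paneth cells of WT and in 27 of 257 of KO. In the other kept cells, which include lymphocytes, Gzma stood at 133, 88.8, 1028 and 498 CPM in the same order. The 8 T lymphocyte markers summed to 242 CPM in Paneth cells of WT set 1, 551 in KO set 1, 60.9 in WT set 2 and 152 in KO set 2, and all 8 were above 0 in each library. Of the 8, 1 was called, Gzma itself, beside 0.0591% of all genes tested. Among them 7 were higher in KO in both sets, while 49.2% of all genes tested had the same direction, up or down, in both. The median log2 fold change of the 8 was 0.98 beside 0.01 over all genes tested. Ccl5, a chemokine of T cells, stood at 538, 1155, 70.5 and 175 CPM (edgeR adjusted p = 0.127), against 162, 208, 2425 and 1208 CPM in the other cells.

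**Figure D4:**
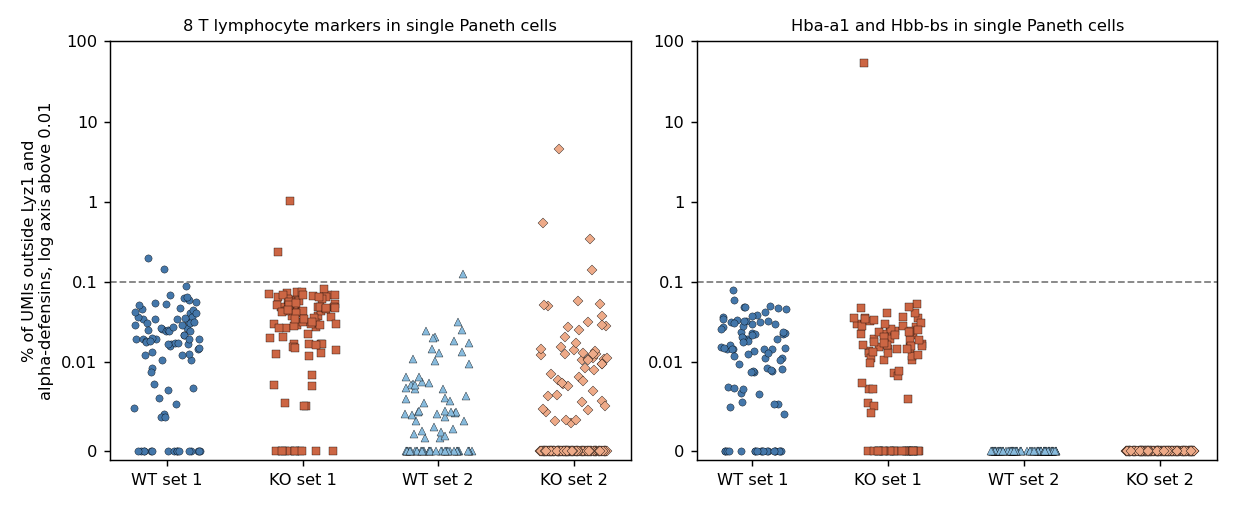
Each point is a Paneth cell; the axis gives the percentage of its UMIs outside Lyz1 and the alpha-defensins that came from 8 T lymphocyte markers (left) or from Hba-a1 and Hbb-bs (right), log axis above 0.01, with points spread sideways at random. On the left, 2 and 2 cells of set 1 and 1 and 4 of set 2, WT then KO, lie above the dashed line at 0.1%. On the right, 1 cell of KO set 1 gave 53.4% to the globins.

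Without the cells that were rich in blood cell markers, none of the 5 calls remained and 15 other genes were called. This alternative was chosen after seeing the data: it leaves out 13 of the 521 Paneth cells, 2 in WT set 1, 5 in KO set 1, 2 in WT set 2 and 4 in KO set 2, in which T lymphocyte, erythroid, myeloid or B cell markers gave at least 0.1% of the UMIs outside the family and at least 10 UMIs. The log2 fold change of Gzma was then 0.25, that of Ccl5 0.18 and that of Hba-a1 -0.23. The cells were removed for lists that hold Gzma, Hba-a1 and Hbb-bs, so the smaller values of these genes follow from the choice of cells. Of 8329 genes tested, 15 (0.180%) were called, 7 higher and 8 lower in KO. Their adjusted p without the 13 cells ran from 3.31e-05 for H2-Aa to 0.0476 for Klf2 (edgeR). None of the 15 had an adjusted p under 0.05 in the main edgeR fit of all 521 cells. Under other settings some passed with all 521 cells, as H2-Aa did with DESeq2 (adjusted p = 0.00111). With no filter on low counts, a setting that called 68 of 14951 genes, all 15 passed (edgeR).

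The smallest p among the 15 was that of H2-Aa, a chain of the MHC class II molecules that present peptides to helper T cells. With all 521 cells it stood at 216 CPM in WT set 1, 86.3 in KO set 1, 297 in WT set 2 and 62.0 in KO set 2, a log2 fold change of -1.79 with a standard error of 0.23 (edgeR adjusted p = 0.0716). Without the 13 cells the log2 fold change was -1.49 (edgeR adjusted p = 3.31e-05), and adjusted p was under 0.05 in 12 of 19 alternatives. In WT set 2, 1 cell held 35.5% of the H2-Aa UMIs. The other kept cells held 630, 153, 292 and 166 CPM, and the test of the difference between Paneth and other cells gave an adjusted p of 1. Psmb8 and Psmb9, proteasome subunits that prepare peptides for MHC class I, had log2 fold changes of -0.91 and -0.89 with all cells (edgeR adjusted p = 0.450 and 0.374). Psmb9 stood at 54.4, 29.0, 124 and 65.3 CPM.

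Other genes that fell without the 13 cells were Sct, 2210407C18Rik, Erdr1 and Clca1. Sct, the hormone secretin, stood at 209, 105, 155 and 86.7 CPM in WT and KO of set 1 and WT and KO of set 2 with all cells, with both KO libraries below both WT libraries. Its log2 fold change was -0.88 with a standard error of 0.15 (edgeR adjusted p = 0.242), and -0.93 without the 13 cells (edgeR adjusted p = 0.0066). 2210407C18Rik stood at 68.3, 36.3, 94.0 and 41.3 CPM and Erdr1 at 143, 71.0, 89.2 and 49.0 CPM with all cells. Clca1, a secreted protein of goblet cells, stood at 57.0, 45.02, 219 and 44.8 CPM without the 13 cells, and most of its difference came from WT set 2. The goblet list as a whole had 0 of 9 genes called with all cells, beside 0.0591% of all genes tested, and a median log2 fold change of -0.36.

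The metallothioneins Mt1 and Mt2, which bind zinc and copper, had lower values in KO in both sets and the highest in WT set 1. Mt2 counted 456 UMIs there, 66.4% of them in 1 cell, and 54, 64 and 56 UMIs in KO set 1, WT set 2 and KO set 2. Its log2 fold change was -2.09 with all cells (edgeR adjusted p = 0.695), -2.19 without the 13 cells (edgeR adjusted p = 0.000548) and 0.02 without WT set 1. Mt1 stood at 945, 348, 367 and 242 CPM, with a log2 fold change of -0.99 (edgeR adjusted p = 0.703). Hspa1a, a heat shock protein that dissociation of tissue induces, stood at 53.6, 8.07, 2.67 and 0.369 CPM, had a log2 fold change of -2.67 (edgeR adjusted p = 0.150), and likewise turned to 0.53 without WT set 1.

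Gif, gastric intrinsic factor, which binds vitamin B12, was seen almost only in Paneth cells. It counted 7 UMIs in WT set 1, 100 in KO set 1, 10 in WT set 2 and 39 in KO set 2, while the other kept cells held 0, 1, 0 and 0. Its UMIs came from 6, 18, 5 and 12 Paneth cells. The levels were 6.05, 80.7, 5.34 and 14.4 CPM, with a log2 fold change of 2.74 and a standard error of 0.46 (edgeR adjusted p = 0.242), and of 2.69 without the 13 cells (edgeR adjusted p = 0.000459). Scgb2b17, a secretoglobin, was likewise at 0 to 0.127 CPM in other cells and stood at 15.1, 45.9, 25.5 and 48.1 CPM in Paneth cells without the 13. Klf2, a transcription factor, stood at 8.02, 35.5, 5.10 and 12.8 CPM.

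Reg1 and Rbp2 had their highest values in KO set 2. Reg1, a secreted lectin, counted 3, 11, 1 and 123 UMIs in Paneth cells of WT and KO of set 1 and WT and KO of set 2, a log2 fold change of 4.46 with a standard error of 0.67 (edgeR adjusted p = 0.150). In KO set 2, 1 cell held 32.5% of its UMIs. Rbp2, an enterocyte protein that carries retinol, counted 130, 186, 114 and 1439 UMIs, and 34.3% of those in KO set 2 lay in 1 cell. In the other kept cells Reg1 stood at 69.4, 65.7, 104 and 369 CPM. The 10 enterocyte markers summed to 2956, 2371, 1000 and 3988 CPM in Paneth cells and to 22275, 11883, 11834 and 27506 CPM in the other cells, highest in KO set 2 on both sides, and none was at 0. Their part in the Reg1 and Rbp2 values was not tested.

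Some genes had higher values in KO in Paneth cells and in the other cells alike. Wdfy1, an adaptor of Toll-like receptor signalling, counted 7 UMIs in WT set 1, 24 in KO set 1, 16 in WT set 2 and 79 in KO set 2, in 7, 19, 11 and 56 Paneth cells. Its levels were 6.05, 19.4, 8.55 and 29.1 CPM, with a log2 fold change of 1.76 and a standard error of 0.30 (edgeR adjusted p = 0.242), beside 10.5, 40.7, 11.0 and 66.9 CPM in the other cells. Rprml counted 0, 17, 0 and 20 UMIs. Against a floor of 3 UMIs over both WT libraries, its level in KO was at least 9.45-fold higher. Gm8797 counted 5, 71, 0 and 19 UMIs (edgeR adjusted p = 0.0596), and 5.44, 45.2, 1.92 and 6.27 CPM in the other cells. Wdfy1, Rprml and Cuedc1 belong to 9 genes that were listed because earlier results of these libraries had shown them to shift in other cells, so they are not independent evidence of a direction. Of the 9, 3 were tested and all 3 had estimates above 0, with 0 called, beside 0.0591% of all genes tested.

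**Figure D5:**
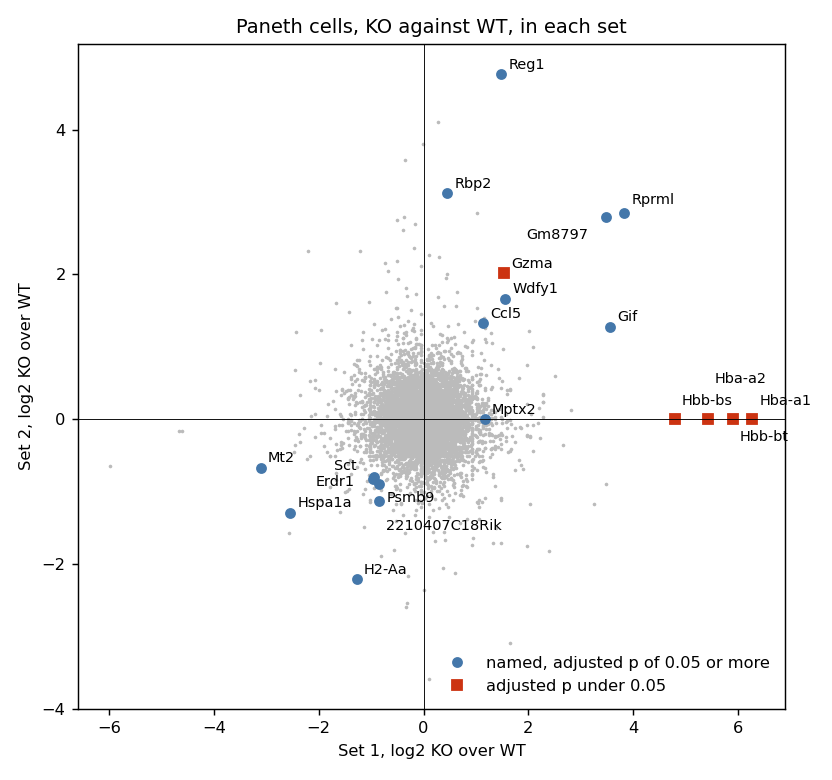
Each point is a gene tested in Paneth cells; the axes give log2 KO over WT in set 1 and in set 2, with 2 pseudocounts on average. The 4 globins lie on the horizontal axis because set 2 held none of their UMIs, Gzma lies above 1.5 on both axes, and the correlation over all genes is -0.01.

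Apart from these, the sets did not share a direction. Over all 8454 genes the log2 difference between KO and WT had the same sign in both sets for 49.2%, and the correlation between the sets was -0.01 across genes, which are not independent replicates. Over the 953 genes with a mean of at least 100 CPM the correlation was 0.04 and the share of equal signs 44.8%. The libraries of the 2 sets are different, so no library enters both axes.

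The lists on Paneth cell functions held no call. With 0.0591% of all genes called, a count of 0 in lists of these sizes does not set them apart. Of the secreted antimicrobial list, 17 of 22 genes were tested and 0 were called, with a median log2 fold change of 0.04. Reg1, which is on this list and described above, had its highest estimate, 4.46. Mptx2 had a log2 difference, KO minus WT, of 1.17 in set 1 and 0.00 in set 2. Reg3g, a lectin that binds Gram-positive bacteria, stood at 924, 1129, 1668 and 2055 CPM, and Reg3b, its relative, at 177, 144, 767 and 624 CPM. Both sums were higher in set 2 in either genotype. For Reg3b, 3 cells held 53.4% of the UMIs in WT set 2, and 1 cell held 36.0% in KO set 2. Reg3a stood at 51.0, 60.5, 13.4 and 44.99 CPM.

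Of 17 niche signals, 8 passed the filter on low counts, and 0 were called, with a median log2 fold change of -0.16. Egf stood at 14.7, 6.46, 9.62 and 9.22 CPM, the Notch ligand Dll4 at 7.78, 6.46, 8.55 and 21.8 CPM and Dll1 at 19.9, 10.5, 19.8 and 15.5 CPM. Of the 20 transcription factors and Wnt receptors of the lineage, all 20 were tested and 0 called, with a median of 0.11. Atoh1 stood at 65.7, 67.8, 103 and 96.3 CPM and Sox9 at 142, 140, 118 and 144 CPM, and Xbp1, the factor of the unfolded protein response that secretory cells need, at 207, 222, 206 and 194 CPM. The genotypes of these 3 genes overlapped.

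Secretory protein folding and stress had 33 of 34 genes tested, 0 called and a median of 0.01. Hspa5, the main chaperone of the endoplasmic reticulum, stood at 372, 292, 433 and 460 CPM. Granules and exocytosis had 14 of 20 tested, 0 called and a median of 0.04, and Rab3d, a GTPase of secretory granules, stood at 95.9, 111, 105 and 124 CPM. Autophagy and microbial sensing had 13 of 18 tested, 0 called and a median of 0.00, and Atg16l1, whose loss disturbs Paneth granules in mice, stood at 16.4, 11.3, 15.5 and 15.1 CPM. Among 7 metal handling genes 0 were called. Slc30a2, a zinc transporter of the granules, stood at 50.1 CPM in WT set 1, 194 in KO set 1, 120 in WT set 2 and 99.9 in KO set 2, and the sets went in opposite directions.

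Of 28 genes reported elsewhere as miR-375 targets, 23 were tested, 13 with an estimate above 0 and 10 below. None was called, beside 0.0591% of all genes, so the count does not set them apart, with a median log2 fold change of 0.06 beside 0.01 over all genes. Yap1, a growth regulator of the Hippo pathway, stood at 13.8, 19.4, 19.2 and 17.3 CPM. Pdk1 stood at 14.7, 12.1, 17.6 and 15.5 CPM and Jak2, a kinase of cytokine receptors, at 13.0, 16.1, 17.6 and 25.8 CPM. These 3 genes counted at most 70 UMIs in a library, a depth at which small changes are not detectable.

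The KO effect in Paneth cells was also compared with that in the other kept cells of the same libraries. Of 12441 genes, 5 differed (edgeR's quasi-likelihood test, adjusted p under 0.05), 0.0402% of those tested, 4 of them (0.0322%) with a higher and 1 (0.00804%) with a lower effect in Paneth cells, and 211 had an unadjusted p under 0.05. These were the 4 globins and Mt2. In the other cells Hba-a1 stood at 389 CPM in WT set 1 and 5.86 in KO set 1, while in Paneth cells 1 cell of KO set 1 held nearly all its UMIs. Without the 13 cells the globins were still called, as the other cells of WT set 1 held the high level, and Mt2 was not. The log2 fold change of Mt2 differed by -2.04 between Paneth and other cells (edgeR adjusted p = 0.0401), and it rests on WT set 1 as described. For Rbp2 the difference was 1.45 (edgeR adjusted p = 0.126).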

How the data were processed

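The authors deposited 4 matrices of raw UMI counts, made on the 10x Genomics Chromium system per the labels. The submitters' processing notes name Cell Ranger, STAR, Salmon, DESeq2 and mm10, without roles or versions. Set 2 headers name software version 3.0.1. Filters applied before deposit are unknown here. Members, gene lists and named genes were chosen with earlier results of these data known. UMIs were summed per library over Paneth cells and over other kept cells. Genes outside the rule that passed filterByExpr were tested in edgeR 4.0.16 under R 4.3.3 with TMM scaling. The model had terms for set and genotype, because the comparison is defined within each set, and left 1 residual degree of freedom. Each standard error given is the absolute log2 fold change divided by the square root of the test's F statistic. It restates the p-value and is no separate estimate of precision. Deviations of libraries of the same set had a correlation of 0.54 over genes, a value that is the same for both sets with 2 libraries per genotype. The difference between Paneth and other cells was fitted on 8 sums with library, cell group and their interaction with genotype. Both fits were tested on simulated data. Named genes were the called genes with the same direction in both sets, then those of smallest p up to 6 in each direction. Ratios of Paneth to other cells had 0.5 UMIs added. DESeq2 1.42.0 was an alternative. Scrublet in scanpy 1.11.5 marked 2, 5, 14 and 27 kept cells in WT and KO of set 1 and WT and KO of set 2 on its own threshold, and removal of its highest scores, 0.8% per 1000 barcodes, was an alternative. Other tools were Python 3.11.15, numpy 2.4.6, scipy 1.17.1, pandas 2.3.3 and matplotlib 3.10.9. Gene positions are from the GENCODE annotation on GRCm38, the Genome Reference Consortium name of mm10.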

Additional observations from a re-analysis of the deposited data

Results flagged for a closer look

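For 5 genes the KO effect differed between Paneth and other kept cells by the test of that difference. It was 12.32 on the log2 scale for Hba-a1, 10.95 for Hba-a2, 11.08 for Hbb-bt and 9.19 for Hbb-bs, all set by 1 Paneth cell of KO set 1 and by other cells of WT set 1. It was -2.04 for Mt2, which rests on WT set 1.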

How the results depend on the processing

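Between KO and WT, 5 genes were called in Paneth cells, and this count moved with most settings. It was 8 and 10 with minimum shares of 5% and 20%, 22 without the highest Scrublet scores, 3 with mitochondrial UMIs under 15%, 13 with cells thinned to at most 3000 UMIs, 68 with no filter on low counts and 3 with DESeq2. Under alternatives chosen after seeing the data it was 25 when the genes with later Defa names entered the rule, 13 with cells of at least 20000 UMIs and 15 without the 13 cells. With no replicate block, that is without the pairing of WT and KO by set, it was 0, with 69 genes at an unadjusted p under 0.05. Leaving out each library in turn, which drops the set term and assumes that the lone library varies like the others, gave 0 calls in each case. For the difference from other cells, where 5 genes were called, no filter on low counts gave 26, and leaving out each library gave 11 to 89. The share difference between genotypes, 2.45 points, ranged from -0.0626 to 4.96 points with each library left out, the lowest without WT set 2.

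Of 433 values of single genes under alternatives, 9 changed sign. With each library left out, the log2 fold change ranged from -6.77 to 12.96 for Hbb-bt, -9.94 to 14.82 for Hbb-bs, -7.93 to 14.44 for Hba-a1, -7.08 to 12.77 for Hba-a2, -0.93 to 3.44 for Ccl5, -3.68 to 0.0194 for Mt2 and -6.05 to 0.53 for Hspa1a. The sign turned without KO set 1 for the 4 globins and Ccl5 and without WT set 1 for Mt2 and Hspa1a. Without the 13 cells it was -0.10 for Hbb-bt and -0.23 for Hba-a1. The cause was not tested beyond the counts per cell given above.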
